A study of Mus musculus with 2 samples.

Results

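The 44 genes described here encode the proteins that copy DNA, from the complex that marks origins to the enzymes that supply nucleotides. They were chosen by name and matched by symbol in the GENCODE M21 annotation of the mouse build mm10, where all 44 were found among 21938 protein-coding genes. Open chromatin was mapped by ATAC-seq, in which a transposase inserts adapters into accessible DNA, in regulatory T cells, the Foxp3-expressing T cells that restrain immune responses, taken in the activated state from male mice 4 months old. The mice carry Foxp3CreERT2, a Cre recombinase gene at the locus of the regulatory T cell factor Foxp3, and Rosa26YFP, a fluorescent reporter at Rosa26. The labels describe the cells as primary cells that arose from haematopoietic cells of the bone marrow, and they do not say how the cells were activated. Both libraries are technical replicates of 1 biological replicate in 1 group, and there is no control group. The 3 deposited peak lists are of the whole series and hold no value per library. Genes could therefore be set against genes within these cells, but no value has a replicate error, the read depth is unknown, and nothing could be tested over samples.

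DNA replication is set up and carried out in steps. In G1 phase the origin recognition complex, Cdc6 and Cdt1 load the Mcm helicase onto DNA, and in S phase kinases, Cdc45, the GINS complex and Mcm10 convert it into the active helicase, after which the polymerases, the clamp Pcna and its loader follow. Many of these genes are transcribed in a wave before S phase under the control of E2F factors, which act as activators or as repressors together with Rb family proteins. T cells leave quiescence and divide quickly when they are activated, and regulatory T cells do so as well. Open chromatin at a promoter does not measure transcription, and a bulk list cannot tell a promoter that is open in fewer cells from one that is less open in each cell.

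Peak regions within 1000 bp of a transcription start site (TSS) of a gene, whichever of its annotated TSSs that was, were taken as its promoter regions. The main list holds peaks at an irreproducible discovery rate (IDR, a measure of how poorly a peak repeats between the compared inputs) of 0.05 or below. In it 43 of the 44 replication genes (97.7%, Wilson 95% interval 88.2 to 99.6) had a promoter region, against 49.1% of all protein-coding genes. With an IDR of 0.01 or below the count was again 43 of 44, while the share of all genes was 45.6%. The less strict pseudoreplicated list held a promoter region for 44 of 44 members, where the share of all genes was 55.7%. The intervals cover counting error only, because the genes are not replicates.

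A promoter region in the pseudoreplicated list alone was found for 6.55% of all genes and for 1 member. That exception was Tyms, which encodes thymidylate synthase, the enzyme that makes the thymidine nucleotide dTMP. Its promoter region was present only in the pseudoreplicated list, at chr5:30073102-30073889, where it was 788 bp wide with 3 summits. The strongest summit lay upstream of the TSS, at -55 bp. Its signal, the enrichment that the peak caller wrote for the peak, was 10.63 and its −log10 p was 26.56. In the ranked list its best IDR was 0.163, and the −log10 p in the 2 compared inputs was 18.76 and 10.29. Pola2, the accessory subunit of polymerase alpha, passed with a lower signal of 10.32 but a −log10 p of 33.82, an IDR of 0.00744 and closer inputs of 20.82 and 20.9. Prim1, the catalytic subunit of primase, had the next highest IDR at 0.00722. The other 41 members were at 0.00179 or below. In all 43 members that passed, the 2 inputs were within 2-fold of each other, and the largest ratio was 1.62, at Prim1. The sources used here do not say what these inputs were, so their closeness is no measure of agreement between the libraries. These IDRs and ratios were not summarised for other genes, and the main list was itself selected on IDR.

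The sequences that the results below turn on are the bases within 100 bp of the strongest summit, from the mm10 reference. They belong to the 3 members with 2 separate stretches that match an E2F-type motif, to Rfc2, which has the strongest promoter region of the members with 1 such stretch, then to the members with the strongest, the weakest and the widest promoter region, and last to the strongest distal region. Each is written in the direction in which its member is transcribed, which is the plus strand for Rfc2 and the minus strand for the others. Capitals mark matches, on either strand, to the E2F-type spellings TTTCCCGC, TTTGGCGC, TTTCGCGC, TTTGCCGC, TTCCCGCC, TTGGCGCC, TTCGCGCC and TTGCCGCC or to CCAAT, the box bound by NF-Y.
Mcm6 (chr1:128359635-128359835): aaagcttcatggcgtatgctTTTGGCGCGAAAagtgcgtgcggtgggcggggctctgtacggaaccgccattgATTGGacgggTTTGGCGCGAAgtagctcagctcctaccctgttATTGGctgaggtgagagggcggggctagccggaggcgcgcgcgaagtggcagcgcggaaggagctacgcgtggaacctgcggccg
Mcm7 (chr5:138171858-138172058): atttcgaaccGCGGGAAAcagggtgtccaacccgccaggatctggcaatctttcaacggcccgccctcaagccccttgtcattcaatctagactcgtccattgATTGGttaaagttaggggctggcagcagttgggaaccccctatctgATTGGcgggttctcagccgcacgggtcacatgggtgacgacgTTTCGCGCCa
Rfc3 (chr5:151651159-151651359): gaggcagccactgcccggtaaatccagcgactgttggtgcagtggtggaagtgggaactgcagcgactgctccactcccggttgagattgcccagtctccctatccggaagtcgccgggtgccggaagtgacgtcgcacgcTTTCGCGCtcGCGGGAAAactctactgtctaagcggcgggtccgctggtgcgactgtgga
Rfc2 (chr5:134582630-134582830): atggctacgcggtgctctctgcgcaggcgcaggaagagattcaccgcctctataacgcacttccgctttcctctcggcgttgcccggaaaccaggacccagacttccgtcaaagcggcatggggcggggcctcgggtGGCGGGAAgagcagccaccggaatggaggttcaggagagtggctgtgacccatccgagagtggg
Mcm10 (chr2:5012727-5012927): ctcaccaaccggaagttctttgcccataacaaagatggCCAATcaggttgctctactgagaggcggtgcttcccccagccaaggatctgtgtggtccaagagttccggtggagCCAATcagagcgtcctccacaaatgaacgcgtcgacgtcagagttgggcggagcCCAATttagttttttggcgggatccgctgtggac
Pola2 (chr19:5964129-5964329): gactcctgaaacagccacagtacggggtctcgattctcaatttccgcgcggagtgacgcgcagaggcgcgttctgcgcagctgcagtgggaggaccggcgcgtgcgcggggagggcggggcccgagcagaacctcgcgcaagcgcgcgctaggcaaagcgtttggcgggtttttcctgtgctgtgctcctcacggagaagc
Prim2 promoter (chr1:33669717-33669917): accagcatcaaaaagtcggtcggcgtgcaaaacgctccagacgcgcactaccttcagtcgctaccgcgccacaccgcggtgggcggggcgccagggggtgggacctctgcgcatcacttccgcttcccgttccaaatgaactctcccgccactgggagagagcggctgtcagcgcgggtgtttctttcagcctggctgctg
Prim2 distal region (chr1:33684559-33684759): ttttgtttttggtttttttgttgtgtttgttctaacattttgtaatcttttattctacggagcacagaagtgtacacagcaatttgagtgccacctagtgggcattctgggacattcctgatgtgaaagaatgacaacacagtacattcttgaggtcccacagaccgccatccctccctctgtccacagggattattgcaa
The Mcm6 window holds 2 separate E2F-type stretches and 2 CCAAT boxes, as does that of Mcm7. The window of Rfc3 holds 2 E2F-type stretches and no CCAAT box, and that of Rfc2 holds 1 stretch. In the Mcm10 window there are 3 CCAAT boxes and no E2F-type match. Neither motif was matched in the windows of Pola2 and Prim2 or in the distal region of Prim2.

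Across the members the promoter regions were stronger than usual but not wider. Each gene is represented by the strongest of its promoter regions. The median signal of the 43 members was 20.43 (quartiles 17.13 and 23.03, range 10.32 to 32.64), against 16.57 (quartiles 12.72 and 20.52) for the 10731 other genes with a promoter region. Of the 43 members, 35 lay above the median of the other genes, 19 above their upper quartile and 4 below their lower quartile. The caller's −log10 p had a median of 214.6 in members and 150.7 in other genes. Width told the genes apart less: the median was 884 bp in members (quartiles 681 and 1050) and 875 bp in other genes (quartiles 688 and 1070). Above the other genes' median width were 22 members, 11 exceeded their upper quartile and 12 fell below their lower one. The difference of 9 bp in medians changed sign under 5 of 10 alternative settings, whereas the difference in median signal stayed between 3.383 and 4.636 under the same 10. The members' windows were also rich in CpG dinucleotides, with a median observed to expected CpG ratio of 0.909 against 0.811 in other genes and 42 of 43 members at 0.6 or more, against 79.8%. Set against only the other genes with a ratio of 0.6 or more, the median signal of the members was still 3.571 higher.

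**Figure D1:**
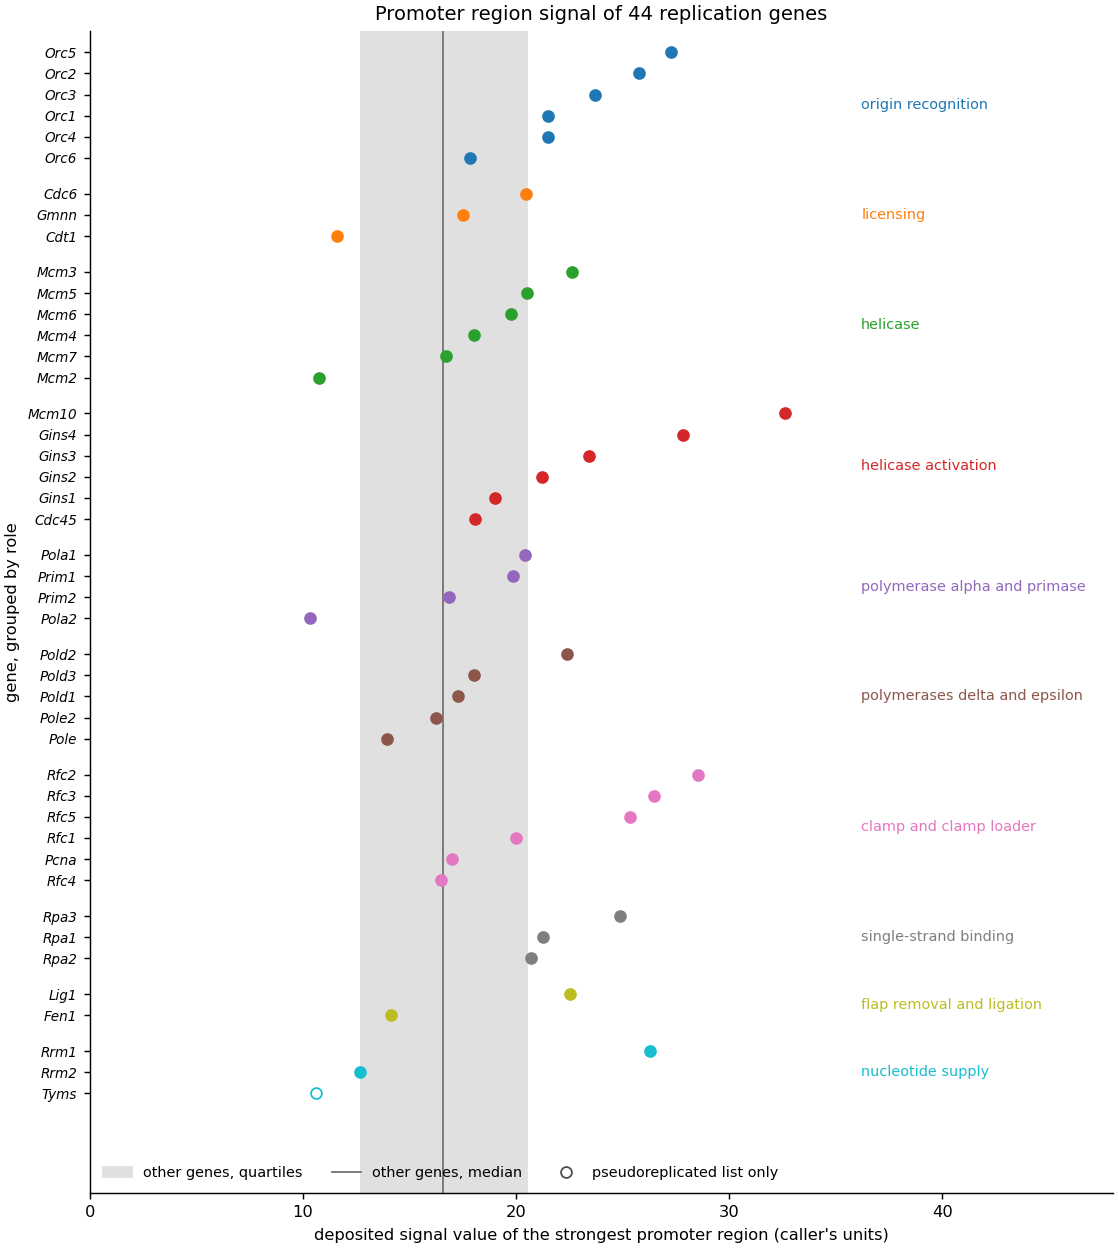
Signal of the strongest promoter region of each replication gene (x axis, the caller's enrichment units), grouped by role. The grey band spans the quartiles of the 10731 other genes, 12.72 to 20.52, and the line is their median of 16.57. Filled points are from the main list, and the open point is Tyms in the pseudoreplicated list. All 6 origin recognition genes and all 6 helicase activation genes lie right of the line.

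The origin recognition complex marks origins and takes part in loading the helicase in G1 phase. All 6 of its genes had a signal above the other genes' median, and 5 were above the upper quartile. Orc5 was the strongest at 27.27, which placed it above 97.2% of other genes. Orc2 reached 25.78, Orc3 23.73, Orc1 21.5, Orc4 21.48 and Orc6 17.86. The widths ran from 723 bp at Orc3 to 1185 bp at Orc4, whose region, chr2:48948789-48949973, was the fourth widest of all members. The region of Orc5 lay at chr5:22549705-22550640. No distal region was assigned to any of the 6.

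The 3 licensing genes differed in signal and width. Cdc6, the ATPase that helps load the helicase, had a signal of 20.47 in a narrow region of 560 bp at chr11:98907442-98908001. Gmnn, which encodes the Cdt1 inhibitor geminin, had 17.49 over 1119 bp. Cdt1 itself had only 11.59, higher than 18.8% of other genes, yet its region was 1276 bp wide, the second widest, at chr8:122567289-122568564. Cdt1 thus combined a wide region with a weak one, and Cdc6 the reverse.

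The Mcm2 to Mcm7 genes encode the ring of the replicative helicase, a complex of 6 different subunits. Their promoter signals were not alike: 22.65 at Mcm3, 20.5 at Mcm5, 19.78 at Mcm6, 18.01 at Mcm4, 16.71 at Mcm7 and 10.73 at Mcm2. Mcm2, at chr6:88898396-88898957, was the second weakest of all members, above 14.3% of other genes. Its −log10 p of 179.7 was nevertheless above the other genes' median of 150.7. The Mcm6 region lay at chr1:128359251-128360106. The Mcm7 region at chr5:138171768-138172227 was 460 bp wide, the second narrowest. Mcm7 was also the only member with 3 promoter regions, the other 2 having signals of 6.838 and 7.473. Mcm5 had a second region of 274 bp with a signal of 11.86, with its summit upstream of the TSS at -843 bp.

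Genes for helicase activation held the strongest promoter. Mcm10, which helps to turn the loaded helicase into an active one, had a signal of 32.64 at chr2:5012472-5013150, higher than at 99.9% of other genes. Its region had a single summit and was 679 bp wide. The 4 GINS subunits bind the helicase together with Cdc45, and their signals were 27.84 at Gins4, 23.41 at Gins3, 21.21 at Gins2 and 19.01 at Gins1. Cdc45 had 18.08 in a region of 1273 bp with 4 summits, at chr16:18811294-18812566, the third widest. The Gins4 region lay at chr8:23237239-23238024. Gins1 was unusual in position. Its strongest region, chr2:150904137-150905158, ended short of the nearest Gins1 TSS, at -242 bp, with the summit upstream at -628 bp, and the region also lies at the promoter of the neighbouring gene Abhd12. A second Gins1 promoter region with a signal of 14.68 had its summit at 222 bp, inside the gene at a downstream TSS.

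Polymerase alpha and primase lay the first primers, and their 4 genes had the lowest top signal of the roles with 4 or more genes. Pola1, the catalytic polymerase subunit on the X chromosome, had 20.43. Prim1 had 19.87 in 516 bp at chr10:128014993-128015508, the third narrowest. Prim2, the large primase subunit, had 16.85 in the widest region of all, 1375 bp at chr1:33669341-33670715. Pola2 had the weakest region, 10.32 at chr19:5963623-5964627, although it spread over 1005 bp with 4 summits.

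Polymerases delta and epsilon copy the lagging and the leading strand. Pold2, an accessory subunit of polymerase delta, had the strongest region of the 5 genes at 22.38, followed by Pold3 at 18.04 and the catalytic Pold1 at 17.28. Below the other genes' median were Pole2 with 16.26 and Pole, the catalytic subunit of polymerase epsilon, with 13.94 at chr5:110285607-110286711. Pole was thus the fifth weakest member.

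Of the 5 clamp loader genes, Rfc2, Rfc3 and Rfc5 lay above the other genes' upper quartile, Rfc1 between their median and upper quartile, and Rfc4 just below their median. Rfc2 reached 28.55 in only 520 bp at chr5:134582532-134583051, the fourth narrowest region and the second strongest. Rfc3 had 26.49 at chr5:151650493-151651431, Rfc5 25.34, Rfc1, the large subunit, 20.01 and Rfc4 16.49. Pcna, the sliding clamp itself, had 16.98, close to the other genes' median, over 1147 bp. Most of the Pcna region lay inside the gene, with 895 bp downstream and 251 bp upstream of the TSS. At Pcna, 362 bp of the region were 98.9% identical to chr19:9283238-9283599, where neither list held a region. The sources used here do not say how reads that match more than 1 site were placed, and the part of this copy in the Pcna value was not tested.

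Single-strand DNA is held by the 3 Rpa subunits, and all 3 genes lay above the other genes' upper quartile. Rpa3 had 24.89 and the highest −log10 p of any member at 586.2, Rpa1 had 21.28 at chr11:75348187-75348868 and Rpa2 20.7. The genes that finish Okazaki fragments split apart: Lig1, the ligase, had 22.53 in 1152 bp at chr7:13278199-13279350, the fifth widest, and the flap nuclease Fen1 had 14.12. Lig1 had a second promoter region of 731 bp with a signal of 21.04 at a TSS farther into the gene. Of its first region, 479 bp were 97.9% identical to chr7:13123782-13124252, where the pseudoreplicated list held 1 region and the main list none.

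Ribonucleotide reductase makes deoxynucleotides from a large and a small subunit. The promoters of its 2 genes were opposites in this set. Rrm1, the large subunit, had the narrowest region of all members at 413 bp, chr7:102441534-102441946, but a signal of 26.3, higher than at 95.6% of other genes. Rrm2, the small subunit, had 12.66 over 988 bp at chr12:24708007-24708994. With Pola2, Mcm2 and Cdt1 it made up the 4 members below the other genes' lower quartile. At Tyms, 275 bp of the pseudoreplicated region were 92.4% identical to chr10:87966759-87967024, where neither list held a region. For the other 41 members no copy of at least 200 bp and 90% identity was found on the assembled chromosomes.

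**Figure D2:**
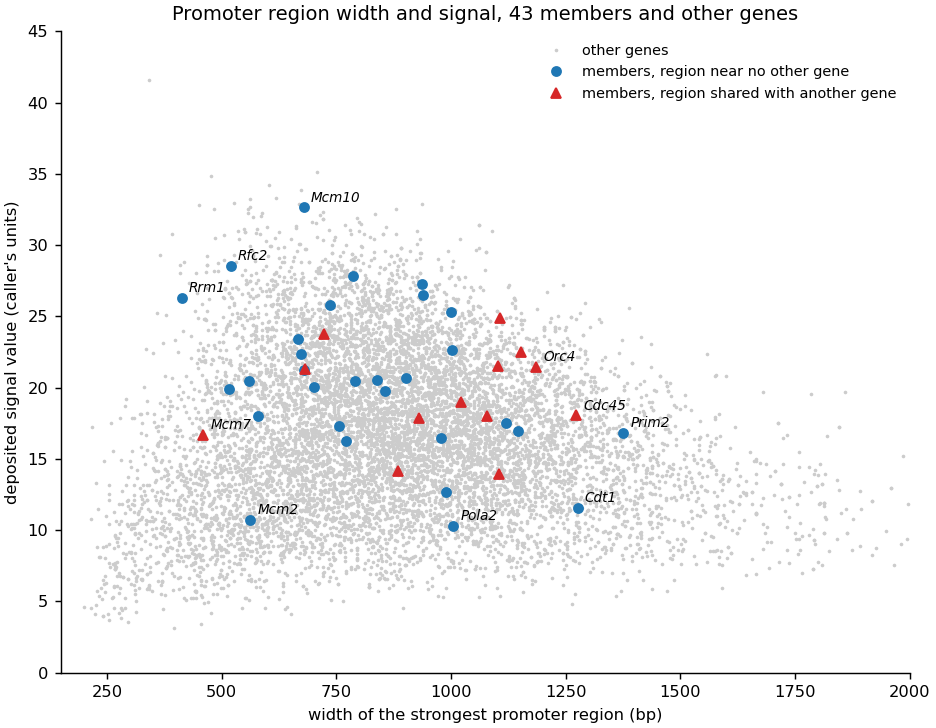
Width (x axis, bp) against signal (y axis, the caller's units) of the strongest promoter region of 43 members over the other genes (grey points, of which 16 wider than 2000 bp are not drawn). Triangles are members whose region also lies within 1000 bp of another gene's TSS. Mcm10, Rfc2 and Rrm1 sit at high signal and small width, Cdt1 and Pola2 at low signal and larger width.

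The regions were centred tightly on the members' start sites. The strongest summit lay within 100 bp of a TSS of the gene in 39 of 43 members (90.7%, interval 78.4 to 96.3), against 66.8% (65.9 to 67.7) of other genes. The 4 exceptions were Gins1, Mcm7 at -140 bp, Orc4 at -114 bp and Mcm4 at -111 bp, and in all 4 the region was shared with a neighbouring gene. The median position was -39 bp, just upstream of the TSS, in members and -38 bp in other genes, so the members differed in spread rather than in centre. Gins1 alone had a strongest region that did not cover its nearest TSS. More than 1 summit was present in 81.4% of members and 78.7% of other genes. Members with 1 summit had a median width of 569.5 bp, those with 2 summits 756 bp and those with 3 or more 1091 bp, close to the 566, 803 and 1082 bp of other genes. When only the annotated 5' end of each gene was counted as its start, Rfc2 no longer had a promoter region. Its summit lay 1364 bp inside that end, at a downstream TSS. From the 5' end, the summits of Orc6 (223 bp), Cdc45 (274 bp), Gmnn (388 bp) and Lig1 (1481 bp) were also more than 100 bp away.

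**Figure D3:**
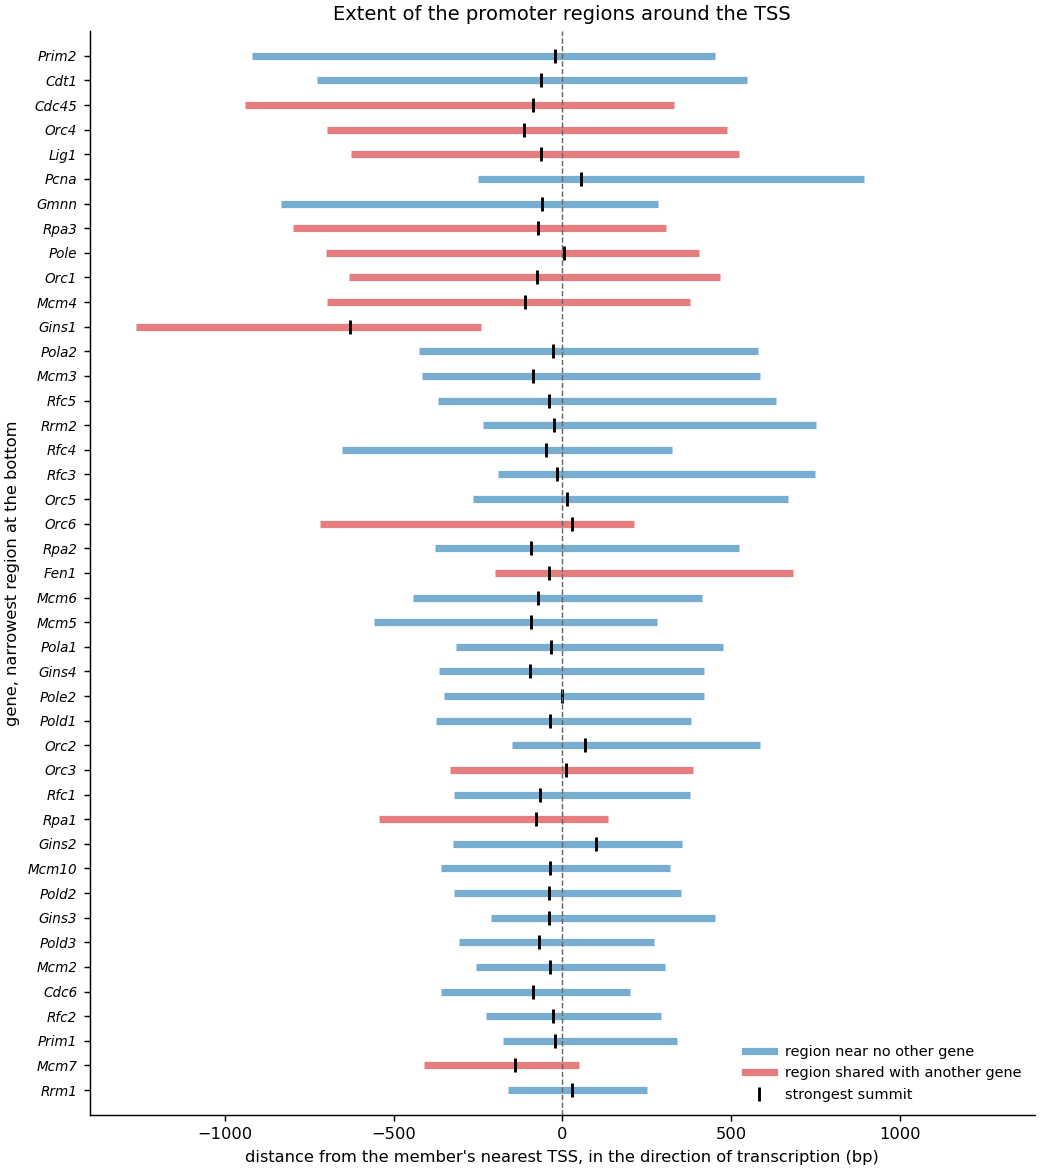
Extent of the strongest promoter region of 43 members relative to the nearest TSS of the gene (x axis, bp in the direction of transcription), ordered by width. The black tick is the strongest summit, and red bars are regions shared with another gene. The ticks gather within 100 bp of the TSS except at Gins1, Mcm7, Orc4 and Mcm4.

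Some members shared their promoter region with a neighbouring gene. A region within 1000 bp of a TSS of another protein-coding gene was found for 13 of 43 members (30.2%, interval 18.6 to 45.1), and 24.0% of all genes with a promoter region had one. The background thus lies within the members' interval. In all 13 cases the neighbour was on the opposite strand, and the TSSs of the genes that lay nearest to the summit were divergent. The gaps given here are between those TSSs, and other annotated TSSs of the same genes were not considered. Orientation was not counted in the shared regions of other genes, so the 13 cases are not shown to be particular to members. Orc3 and Rars2 start 13 bp apart, Orc6 and Vps35 25 bp, Fen1 and Tmem258 49 bp, Orc1 and Prpf38a 87 bp, Lig1 and Zswim9 105 bp, Rpa1 and Smyd4 109 bp, and Pole and Pxmp2 120 bp. Wider gaps separated Cdc45 from Ufd1 (153 bp), Mcm7 from Ap4m1 (184 bp), Orc4 from Mbd5 (232 bp), Mcm4 from Prkdc (466 bp) and Gins1 from Abhd12 (659 bp). Rpa3 shared its region with both Umad1, 115 bp away, and Gm45062, 277 bp away. By role, 4 of the 6 origin recognition genes and both genes of flap removal and ligation shared a region, and none of the clamp and clamp loader genes did. Shared regions of members were wider, with a median of 1079 bp against 788 bp for the 30 that were near no other gene, and their median signals were 19.01 and 20.45. Among other genes the same split gave 935 and 855 bp. In a shared region the signal cannot be divided between the 2 genes. Restricted to regions near no other gene, the members' median signal was 4.178 above that of other genes.

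The E2F-type motif was several times more frequent at the members' summits than at those of other genes. A match lay within 100 bp of the summit in 17 of 43 members (39.5%, interval 26.4 to 54.4), against 790 of 10731 other genes (7.36%, 6.88 to 7.87) and 8.394% of the other genes with a CpG ratio of 0.6 or more. By role, 5 of the 6 Mcm2 to Mcm7 genes had a match, all but Mcm3. Matches were found in 3 of 6 origin recognition genes (Orc1, Orc3 and Orc4) and 3 of 6 genes of the clamp and its loader (Rfc2, Rfc3 and Rfc4). They were also found in Pole and Pole2, the polymerase epsilon genes among the members, and in Gmnn, Prim1, Lig1 and Rrm1. None was found in the 6 genes of helicase activation or the 3 Rpa genes, which says only that these letters do not occur in those windows. At least 2 separate stretches were present in Mcm6, Mcm7 and Rfc3, which is 6.98% of members against 0.224% of other genes. The commonest spelling in members was TTTCGCGC, in 6 members (14%) and 0.634% of other genes. Next came TTCCCGCC, in 5 members (11.6%) and 3.1% of other genes. Of the 20 stretches, 16 lay within 100 bp of the nearest TSS of the gene, and their positions ran from -227 bp, upstream, to 14 bp downstream, with a median of -6 bp. This closeness was largely set by the search, which covered only 100 bp around summits that mostly lay near a TSS. Positions in other genes were not measured. The 17 members with a match did not have stronger promoters than the 26 without: the median signals were 19.87 and 20.45. The spellings overlap one another, so overlapping matches were counted as 1 stretch. A match describes the sequence and not a bound factor.

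CCAAT boxes were also common. A CCAAT was present, on either strand, in 62.8% of members (interval 47.9 to 75.6) and 36.0% of other genes (35.1 to 36.9). Cdc45 had the most, with 4, while Mcm3, Mcm5 and Mcm10 had 3 each. An E2F-type match and a CCAAT were found together in 9 members (20.9%), against 3.11% of other genes. The SP box GGGCGG was found in 74.4% of members and 60.6% of other genes, the ETS spelling CCGGAAGT in 18.6% and 9.24%, and the NRF1 spelling GCGCATGC in 9.3% and 4.4%. For these 3 the members' interval reached or nearly reached the other genes' share: it began at 59.8, 9.74 and 3.68%. The CHR element (TTTGAA or TTCGAA), known from genes expressed in G2 and mitosis, was matched in 2 members, Mcm7 and Rrm1, or 4.65% against 7.53%. The YY1 spelling AAGATGGCG was matched in 0 of 43 members and 3.15% of other genes, with an interval for the members that reaches 8.2%.

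**Figure D4:**
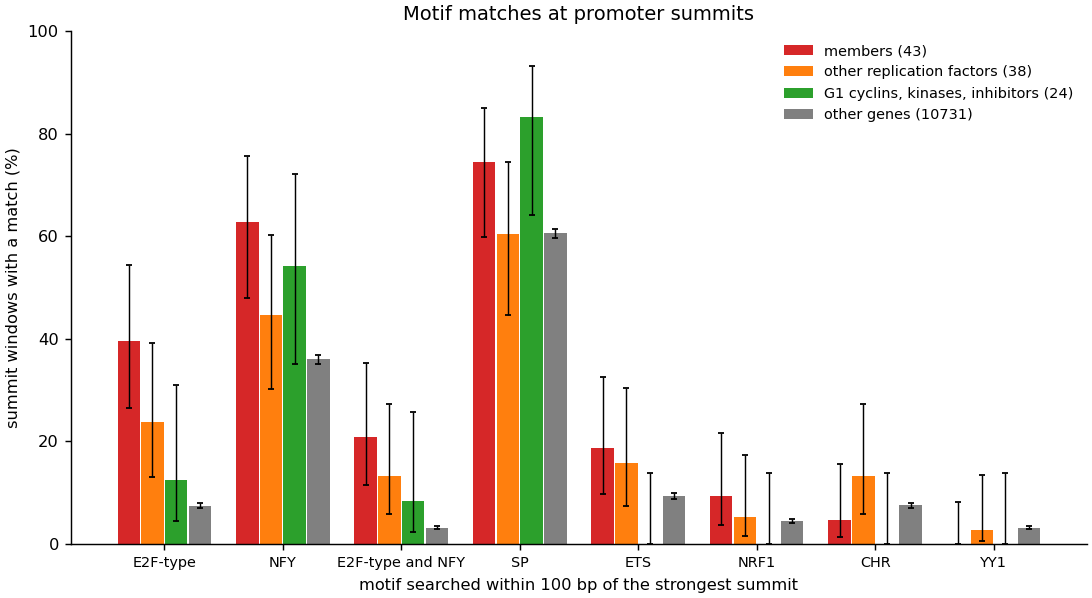
Share of promoter summit windows, 100 bp on each side of the strongest summit, with at least 1 match to each motif (y axis, percent) in members, in 2 comparison lists and in the other genes. Error bars are Wilson 95% intervals, which cover counting error only. The E2F-type share is 39.5% in members and 7.36% in other genes, and the CHR and YY1 shares of members are not above those of other genes.

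Distal regions were assigned to a minority of the members in the main list. Distal here means more than 1000 bp away from any protein-coding TSS, with the member's own TSS as the nearest within 100 kb. At least 1 was assigned to 13 of the 44 members (29.5%, interval 18.2 to 44.2), and to 27.6% of all protein-coding genes. In the pseudoreplicated list the count was 24 of 44 (54.5%, interval 40.1 to 68.3), against 43.5% of all genes. In both lists the share over all genes lies within the members' interval. The 21 distal regions amount to a mean of 0.477 per member, against 0.61 per other gene, while the stretch of genome nearest to the gene had a median of 33.38 kb for members and 45.07 kb for other genes. The distal regions of members had a median signal of 12.15 and width of 458 bp, against 12.58 and 524 bp for the 13351 of other genes. With promoter regions included, 61 regions were assigned to members. Prim2 and Rrm2 had 4 regions each, and Mcm6, Gins1 and Rpa1 had 3 each. At the other end, 5 members had none: Tyms, and Orc1, Cdc45, Rpa3 and Fen1, whose shared promoter regions were nearest to the neighbour's TSS. The lower quartile of regions assigned was 1 in members and 0 in other genes, so having none was not particular to members. At least 4 regions were assigned to 4.55% of members and 7.49% of other genes.

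The strongest distal region lay in intergenic sequence upstream of Prim2 (-14864 bp from its TSS), at chr1:33684532-33684947, with a signal of 18.56, above the 16.85 of the Prim2 promoter. A second Prim2 region in an intron of the gene, chr1:33578377-33579092, had 16.87. In an intron of Rpa1, chr11:75336596-75337564 had a signal of 17.44 and the largest width of the 21 at 969 bp. A region upstream of Rfc3 at -35799 bp, chr5:151686551-151687394, had 16.56. Upstream of Rrm2, chr12:24697137-24697387 had 15.18, again above the 12.66 of its promoter. Cdt1 was the other member with a distal region, of signal 14.08, above that of its promoter (11.59). In Prim2, Rrm2 and Cdt1 the promoter signal was itself near or below the other genes' median. Of the 21 distal summits, 9 lay inside the member itself, 5 inside another gene and 7 in intergenic sequence. The assignment is by distance only and does not show which gene a region acts on.

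**Figure D5:**
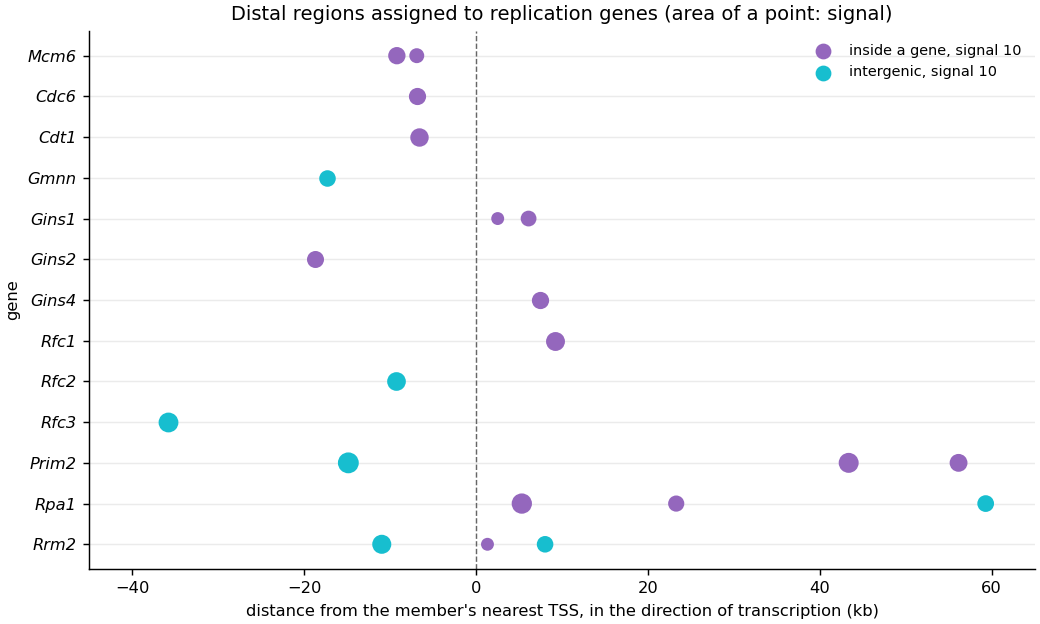
The 21 distal regions assigned to 13 members, by the distance of the summit from the member's nearest TSS (x axis, kb in the direction of transcription). The area of a point is proportional to the signal, and colour separates summits inside a gene from intergenic ones. Prim2, Rpa1 and Rrm2 have 3 distal regions each, and the other 10 members have 1 or 2.

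Other genes of DNA replication, a list of 40 that holds no member, resembled the members in part. A promoter region was present for 38 of 40 (95%), against the 49.1% of all genes, their median signal was 18.25, and an E2F-type match was found in 23.7% (interval 13 to 39.2), which overlaps the members' interval. The 26 genes of G1 cyclins, their kinases and inhibitors and the Rb and E2F families lay farther from the members in some values and not in others. Promoter regions were present for 24 of them, with a median signal of 12.85 and an E2F-type match in 12.5%. The interval of that share, 4.34 to 31, also overlaps the members' interval. Distal regions were assigned to 15 of 26 (57.7%, interval 38.9 to 74.5), against 29.5% of members and 27.6% of all genes. Among the other replication factors the share was close to that of members, at 13 of 40 (32.5%, interval 20.1 to 48). The stretch of genome nearest to the gene had a median of 63.58 kb in the G1 list and 33.38 kb in members, and its part in their difference was not tested. Of the promoter regions in the G1 list, 1 of 24 was shared with another gene, against 13 of 43 in members and 24.0% of all genes with a promoter region. The other replication factors were again close to the members, with 12 of 38 shared (31.6%, interval 19.1 to 47.5). In some other measures the G1 list was nearer to the members than the other replication factors were, and in some it was farther. CCAAT was found in 54.2% of the G1 list, 44.7% of the other replication factors and 62.8% of members, and the SP box in 83.3%, 60.5% and 74.4%. The median CpG ratio was 0.912, 0.888 and 0.909 in the same order. At least 2 E2F-type stretches were found in 2 genes of the G1 list (8.33%), 5.26% of the other replication factors and 6.98% of members. The other replication factors were nearer to the members in other shares, among them those of distal regions, shared regions and E2F-type matches given above. They were also nearer in the shares that follow. A CpG ratio of 0.6 or more was found in 79.2% of the G1 list, 89.5% of them and 97.7% of members. An E2F-type match together with CCAAT was found in 8.33%, 13.2% and 20.9%. In each of these shares the intervals of the 2 lists overlap. They do not overlap for genes with at least 4 assigned regions. Those were 34.6% of the G1 list (interval 19.4 to 53.8), 2.5% of the other replication factors (0.443 to 12.9) and 4.55% of members.

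The label of the cells was set against markers. A promoter region was present for 5 of 6 T cell genes, all but Cd4, and for 4 of 5 regulatory T cell genes, all but Tnfrsf18, with Foxp3, Il2ra, Ctla4 and Ikzf2 among them. Cd8b1 had one and Cd8a did not. None of the 3 B cell, 4 myeloid, 2 NK, 2 erythroid and 2 epithelial genes had one, although 8 regions were assigned to the NK gene Klrb1c, 2 to Epcam and 1 to Itgam.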

How the data were processed

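The 2 sequencing libraries of 1 group were represented by 3 peak lists, which derive from 1 alignment to mm10 per the README of each library. The signal is the enrichment per peak as deposited. The sources used here do not give its reference level, the aligner, caller or filters, or any shift of read ends for the transposase. The −log10 p and −log10 IDR columns were deposited by the authors. The deposited score follows from the global IDR, with a lowest value of 540 in the thresholded list, which corresponds to an IDR of 0.05. All are the authors' values of single peaks and were compared only within a list.

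The 48668 thresholded peaks on chromosomes 1 to 19, X and Y were merged where they overlapped by 1 bp or more into 26090 regions, each with the values of its strongest peak. Regions were assigned to the nearest protein-coding TSS of GENCODE M21 within 100 kb of the summit. A percentile is the share of other genes with a promoter region below the member. CpG ratios used 300 bp around the summit. Shares carry Wilson 95% intervals for counting error only. Copies of promoter regions were sought with blastn 2.17.0, and other steps ran in Python 3.11.15, pandas 2.3.3 and scipy 1.17.1. Merging, promoter regions and assignment were tested on simulated data, where 100 of 100 planted promoter regions were found.

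The members, the comparison lists, the motifs and the alternatives were chosen with earlier results of these data known. All members are named, with coordinates for those without a promoter region, for the 5 widest, narrowest, strongest and weakest promoter regions for the 5 members with most regions and for the 5 strongest distal regions, and neighbours where they share a region. Replicates could not be compared, because no list holds values of a single library.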

Additional observations from a re-analysis of the deposited data

How the results depend on the processing

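The alternatives were the pseudoreplicated and the IDR 0.01 lists, promoter windows of 500 bp and of 2500 bp, a single TSS per gene, unmerged peaks, the widest region of a gene, other comparison genes, assignment within 50 or 20 kb and other motif windows. The median signal, the number of members with a promoter region (42 to 44), the number with a shared region (13 or 14) and the median summit position moved little under those that apply to each. The difference in median width between members and other genes (9 bp) turned negative in the IDR 0.01 list (-2 bp), with the widest region of each gene (-7 bp), against genes with a CpG ratio of 0.6 or more (-25 bp), near no other gene (-67 bp) and, in an alternative chosen after seeing the data, without the members that have a copy elsewhere (-19 bp). The pseudoreplicated list gave 24 members with a distal region, or 54.5% against 43.5% of all genes, and 2.205 regions per member against 2.13 per other gene. The IDR 0.01 list gave 9 members with a distal region and 1.159 regions per member, without a count for all genes. Unmerged peaks gave 2.659 per member, because each summit is then counted. An E2F-type match was found in 23.3% of members within 50 bp of the summit and in 18.6% with only TTTCCCGC and TTTGGCGC, where the other genes had 3.29% and 2.106%. Both settings search fewer bases or letters. In a window from 250 bp before to 50 bp after the annotated 5' end, 37.21% of members and 9.468% of other genes had a match.

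No paired analysis was possible because there is 1 group, and leaving out a replicate was not possible because the lists hold no values of a single library. The read depth is unknown, so a missing promoter region says only that no peak passed the threshold.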

Other observations

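Tyms was not alone in having a promoter region only in the pseudoreplicated list. Of the 66 genes of the comparison lists, 4 did so (6.06%, Wilson 95% interval 2.38 to 14.6), a share near the 6.55% of all genes. Tk1, which encodes the thymidine kinase of the salvage pathway for dTMP, had a region of 224 bp with a signal of 4.964, its summit at 988 bp from the TSS and an IDR of 0.22. Atad5, whose product unloads Pcna, had 905 bp with a signal of 8.428 and the same IDR. The inhibitor gene Cdkn1a had 446 bp with a signal of 4.811, and its IDR was 0.125. At E2f6, a repressor of the E2F family, the region was 922 bp wide and had a signal of 10.28. Its −log10 p was 38.62, above that of Pola2 (33.82), yet the 2 compared inputs were far apart at 11.49 and 29.94 and the IDR was 0.142. The inputs of Atad5 were 19.56 and 7.815, those of Tk1 6.048 and 13.52, and those of Tyms 18.76 and 10.29. At Cdkn1a they were close, at 7.882 and 9.183, so unlike inputs were not common to all of these genes.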
